A study of Canis lupus familiaris with 37 samples.

Results

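The 10 RNA-seq samples of the related canine B-cell lymphoma lines CLBL-1 and CLBL-1M, together called CLBL samples here, were compared by the P number that their data carry. They are 10 of the 37 samples of a series that also holds 12 B-cell lymphomas, 4 control lymph nodes, other canine lymphomas and the lines GL-1, CL-1 and OSW. The low group held CLBL1 P5, CLBL1 P17, CLBL1M P15 and CLBL1M P22, and the high group held CLBL1 P76, CLBL1 P77, CLBL1 P78, CLBL1M P74, CLBL1M P75 and CLBL1M P76, so that 4 low samples were set against 6 high samples. The members were chosen by this number alone and by no measured value, though with earlier results of these data known. In cell culture P commonly stands for passage, but neither the sample labels nor the study's methods give the number or say what it means. No agent or genetic change is named for any of the 10 samples, and both lines were grown in the same serum-containing medium.

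CLBL-1 was established from a dog with B-cell lymphoma, and CLBL-1M from a tumour that CLBL-1 cells formed in a mouse, so both trace back to the cells of 1 animal. The sample titles call the data named CLBL1 "CLBL-1M" and the data named CLBL1M "CLBL-1"; the names carried by the data are used here, and which is right could not be settled. The high samples bear consecutive numbers within each line, and nothing states that they came from separate cultures, so p-values measure only the spread between these samples.

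Lines kept in culture for many divisions can drift, as cells that divide faster take over and genes not needed outside the body fall silent. In B cells the genes of interest include those of DNA replication and mitosis, which follow how many cells are dividing, those of the B-cell receptor, which carries survival signals in many B-cell lymphomas, and MHC class II, by which B cells present antigen to helper T cells.

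The samples held between 1980761 and 3414487 read pairs counted on genes, with 3 counts worth 0.879 to 1.51 counts per 1000000 counts on genes (CPM) in a sample. Between 14437 and 15162 genes had at least 1 count. The means of low and high samples were 2703096 ± 615690 (SD, n = 4) and 2967752 ± 400348 (SD, n = 6) counts on genes, 71.9% ± 1.42 and 71.1% ± 0.673 of reads outside genes, and 14873 ± 312 and 14880 ± 217 genes detected. These did not differ beyond their spread, with p = 0.47, 0.32 and 0.97 in two-sided exact permutation tests within lines, whose smallest possible p was 0.01. Reads that hit several genes made up 0.422% ± 0.0326 of the total in low and 0.453% ± 0.0671 in high samples (p = 0.32, the same exact permutation test). After adjustment over the 7 sample-level measures compared, the lowest p of these exact permutation tests was 0.448.

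Because gene identifiers are not paired with symbols in the data used here, the identity of the line could not be checked by named markers. A list of B-cell receptor signalling genes, given as identifiers by the study, was described instead. Over its 17 members tested, the mean log2(CPM + 1) lay between 7.26 and 7.57 in the 10 CLBL samples, against 7.30 to 8.11 in the 12 B-cell lymphomas, 2.57 to 2.69 in the 2 samples of the T-cell line CL-1 and 3.44 to 3.66 in the 4 samples of the T-cell line OSW. The control nodes lay at 7.10 to 7.50 and the B-cell line GL-1 at 5.50. Both P groups were well above the T-cell lines on this list. Only members expressed enough in the CLBL samples to be tested were averaged, out of genes the study had selected in this series. A higher level in CLBL than in T-cell lines was thus favoured in advance, and line identity was not tested. The list does not tell lymphoma from normal node and does not mark every B-cell line.

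Before the genes, the samples themselves are described, because 3 of them, from both P groups, stood apart. On the first principal component of log2 CPM, which held 37.2% of the variance, CLBL1 P5 lay at 41.7, CLBL1M P74 at 30.7 and CLBL1M P15 at 29.8. The other 7 samples lay between -21.6 and -3.27. Of the 3, P5 and P15 are low, each with the lowest P number of its line, and P74 is high. They are the 3 samples with the fewest counts on genes (1980761, 2474777 and 2319126). When every sample was thinned to 1980761 counts, they still lay at 38.5, 28.8 and 29.3, and the others between -20.1 and -2.22. The same 3 had the largest shares of reads outside genes (73.82%, 72.08% and 71.83%, against at most 71.80%). Their 20 highest genes also held the most counts (9.45%, 8.70% and 8.90%, against at most 8.57%). Thinning does not change these shares, and their part in the position was not tested. The mean position was 11.8 ± 28.4 (SD, n = 4) in low and -7.88 ± 20.02 (SD, n = 6) in high samples, a difference of -19.7 within the spread (p = 0.28, two-sided exact permutation test within lines). The gene counts, the named genes and the lists of division, antigen presentation and B-cell receptor genes are given with and without them.

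**Figure D1:**
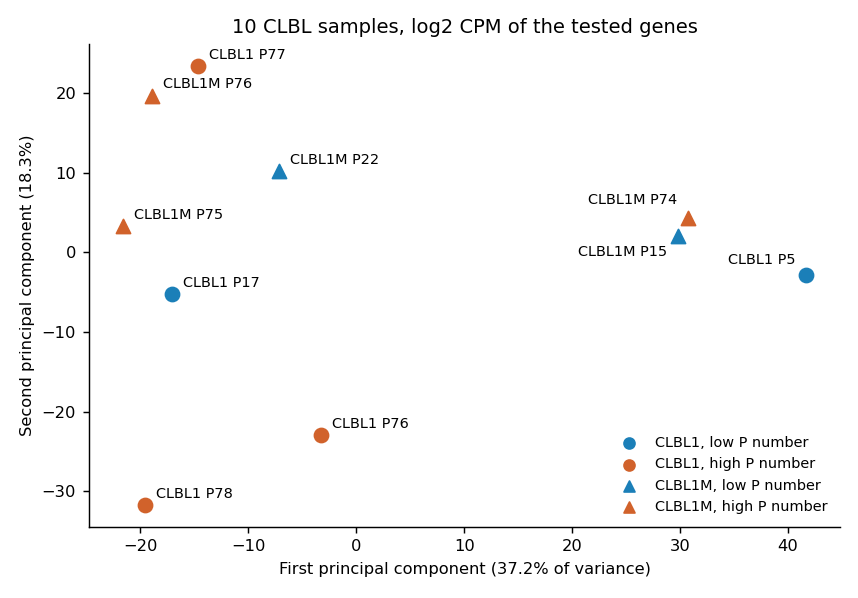
Position of the 10 CLBL samples on the first 2 principal components of log2 CPM (axes unitless, with the share of variance), coloured by P number and shaped by line. CLBL1 P5, CLBL1M P15 and CLBL1M P74 lie at 29.8 to 41.7 on the first component and the other 7 at -21.6 to -3.27, and low and high samples are found on both sides.

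Samples of the same P group were no more alike than samples of different groups. Over the tested genes, the mean Euclidean distance in log2 CPM was 55.7 for the 24 pairs of a low and a high sample and 55.5 for the 21 pairs within a group. The difference of 0.259 was not larger than relabelled samples gave (p = 0.42, one-sided exact permutation test within lines over 100 labelings). Within a line, the 4 pairs with consecutive numbers had a mean distance of 55.0 and the 12 pairs of low and high samples one of 55.4. Samples 1 number apart were thus about as far from each other as samples at least 52 numbers apart.

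The closest pair of all 45 was a low and a high sample, CLBL1M P15 and CLBL1M P74, at a distance of 32.6. Compared over 10406 genes, their counts gave a chi-square per degree of freedom of 1.35, where sampling noise alone gives about 1. The next pair, CLBL1 P17 and CLBL1M P75, was also a low and a high sample and came from different lines (distance 35.6, chi-square per degree of freedom 2.75). The value exceeds counting noise but cannot say whether the libraries came from separate cultures. They were kept as 2 samples, as the labels give them, and they remained the closest pair after thinning to equal depth (31.7). The nearest neighbour was of the same P group for 6 of the 10 samples.

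**Figure D2:**
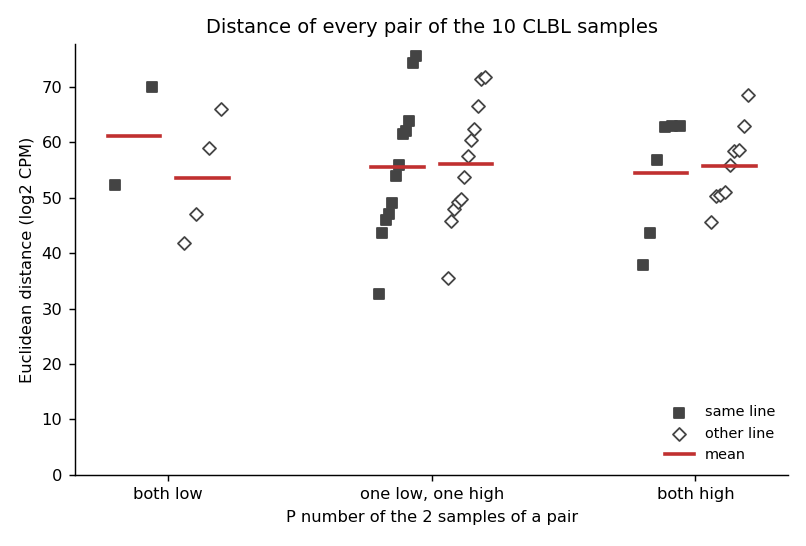
Euclidean distance in log2 CPM (vertical axis, from 0) of all 45 pairs of CLBL samples, by the P number of the 2 samples; filled squares are pairs within a line, open diamonds pairs across lines, and red bars the means. The 24 low-high pairs (mean 55.7) span 32.6 to 75.6 and include the closest pair.

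The distance to primary tissue was also compared. The mean distance to the 12 B-cell lymphomas was 187 ± 5.56 (SD, n = 4) for low and 193 ± 5.60 (SD, n = 6) for high samples, and that to the 4 control nodes 255 ± 5.64 and 260.4 ± 5.77. Neither difference exceeded the spread (p = 0.20 for both, two-sided exact permutation tests within lines). The 3 samples that stood apart were the nearest to the lymphomas, at 184 for CLBL1 P5 and 182 for both CLBL1M P15 and CLBL1M P74, while the other 7 lay between 190 and 197.

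Low and high samples were then compared gene by gene, with the line as covariate. Of 10866 genes tested, 0 passed an adjusted p of 0.05 in edgeR's quasi-likelihood test (0%). The lowest adjusted p was 0.907. At an unadjusted p under 0.05 there were 403 genes (3.71%), of which 148 were higher in the high samples (1.36%) and 255 lower (2.35%). DESeq2 called 1 gene and had 387 at an unadjusted p under 0.05.

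In the pooled fit most differences had narrow intervals, which measure only the spread between these samples and give no bound for either line alone. The 95% interval of the log2 fold change lay between -1 and 1, less than a 2-fold change either way, for 9454 genes (87.0%), and between -2 and 2 for 99.2%. Its median half-width was 0.40. Only 63 genes had an estimate of 1 or more in size, and 3 one of 2 or more.

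Without the 3 samples that stood apart, 0 of 11159 genes were called by edgeR and 366 had an unadjusted p under 0.05. Leaving out 1 sample at a time never gave a called gene, but the number at an unadjusted p under 0.05 was 979 without CLBL1M P74, 770 without CLBL1 P17, 673 without CLBL1M P22, 243 without CLBL1M P76 and 212 without CLBL1 P5. A single sample therefore moved this number by more than 1.5 times.

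In 68 genes the CPM of the groups did not overlap: all high samples were above all low samples in 31 (0.285%) and below them in 37 (0.341%). These were mostly small differences, with a median size of 0.37 on the log2 scale. Only 1 of the 31 and 3 of the 37 differed by 2-fold or more. None of the 68 passed the adjusted test in edgeR. Without the 3 samples that stood apart, which leaves 2 low and 5 high samples and makes separation easier, 455 of 11159 genes were above (4.08%) and 503 below (4.51%).

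The gene with the lowest p in the pooled test was ENSCAFG00000004237. It was read at 45.9 CPM in CLBL1 P5, 20.5 in CLBL1 P17, 4.85 in CLBL1M P15 and 10.9 in CLBL1M P22, and at 1.49, 1.68 and 2.13 in CLBL1 P76, P77 and P78 and 3.02, 5.22 and 3.47 in CLBL1M P74, P75 and P76. The low samples were higher, with 1 overlap, as CLBL1M P75 lay above CLBL1M P15. The log2 fold change was -2.72 (SE 0.56; edgeR adjusted p = 0.907), and this was the 1 gene that DESeq2 called, at -2.78 with an adjusted p of 0.0073. The log2 fold change was -2.53 without the 3 samples that stood apart (edgeR adjusted p = 0.662). Primary tissue held 0.45 to 106 CPM of it (B-cell lymphomas) and 44.7 to 113 CPM (control nodes), and it was read at 0 in GL-1 and in both CL-1 samples.

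The lowest p among genes with a higher estimate in the high samples belonged to ENSCAFG00000032358. Its low samples stood at 4.54, 0.88, 4.44 and 1.70 CPM (CLBL1 P5, P17, CLBL1M P15, P22). Its high samples stood at 9.52, 85.9 and 29.8 in CLBL1 P76, P77 and P78 and at 4.31, 17.1 and 45.1 in CLBL1M P74, P75 and P76. Here 5 of the 6 high samples were above all low samples, while CLBL1M P74 lay among the low samples. The log2 fold change was 3.48 (SE 0.83; edgeR adjusted p = 0.907), and 4.82 without the 3 samples that stood apart (adjusted p = 0.805). Control nodes held far more of this transcript, 2689 to 13924 CPM, and the B-cell lymphomas 12.6 to 4677, so that every CLBL sample was below every control.

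The lines were examined separately because a difference in one line can be lost in the pooled test. Within CLBL1, 2 low against 3 high samples, 6 genes passed (0.0552%), 1 higher and 5 lower in the high samples, and 467 had an unadjusted p under 0.05. Within CLBL1M, 2 against 3, 0 genes passed in edgeR (0%), 114 had an unadjusted p under 0.05, and DESeq2 also called 0 with 78 at that level. DESeq2 called 28 genes within CLBL1, 9 higher and 19 lower, which included all 6. The difference between the lines was tested itself: 2 genes passed (0.0184%), both among the 6.

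The count within CLBL1 was 1 without CLBL1 P5, 1 without CLBL1 P77, 2 without CLBL1 P76 and 11 without CLBL1M P74. Without all 3 samples that stood apart it was 5, of which 4 were among the 6, and each low arm then held 1 sample, taken to vary like the other groups. The count within CLBL1M was 4 without CLBL1M P74. The count for the difference between lines was 2 without CLBL1M P75, 11 without CLBL1M P74 and 1 without each of the other 8 samples.

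Across the 10866 genes the log2 fold changes of the 2 lines were weakly related, with a Pearson coefficient of 0.13 and a Spearman coefficient of 0.23, and had the same sign in 59.4%. The contrasts share no sample, but they share the fit, each holds a low sample that stood apart, and genes are not independent replicates. The spread of the estimates over genes was larger in CLBL1 (SD 0.42) than in CLBL1M (SD 0.30).

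**Figure D3:**
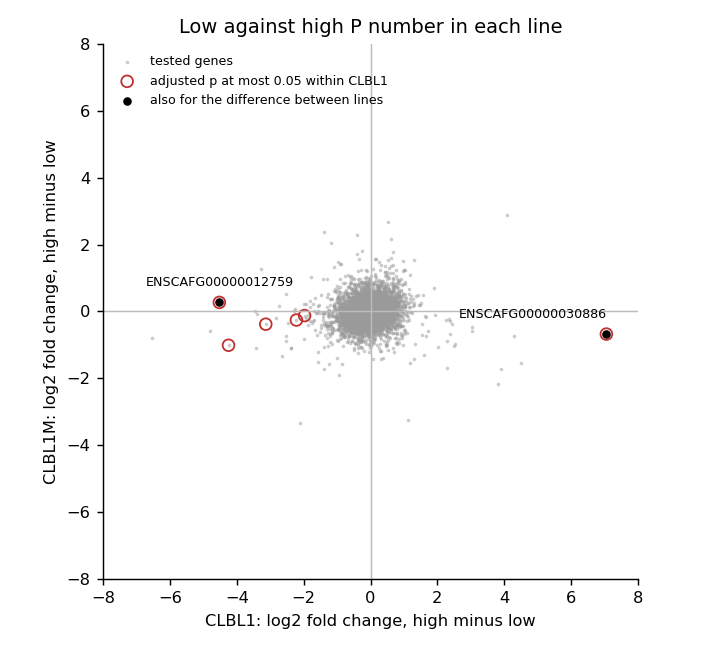
Log2 fold change, high minus low P number, of each of the 10866 tested genes in CLBL1 (horizontal axis) and CLBL1M (vertical axis). Red circles mark the 6 genes that passed within CLBL1 and black points the 2 that also differed between lines; the 6 lie at -4.52 to -1.97 or at 7.06 on the CLBL1 axis and at -1.01 to 0.27 on the CLBL1M axis.

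ENSCAFG00000012759 fell in the high samples of CLBL1. It was read at 49.0 and 53.9 CPM in CLBL1 P5 and P17 and at 3.57, 1.68 and 1.52 in CLBL1 P76, P77 and P78. In CLBL1M it stayed between 42.5 and 73.4 CPM in all 5 samples, low and high. CLBL1 P76 to P78 were thus below the other 7 samples with no overlap. The log2 fold change was -4.52 (SE 0.33; edgeR adjusted p = 0.000277) within CLBL1 and 0.27 (SE 0.26; adjusted p = 1.00) within CLBL1M, and the difference between lines, -4.79 (SE 0.43), passed at an adjusted p of 0.00259. Both calls were kept in all 10 fits that left out 1 sample, with adjusted p of at most 0.00589 and 0.032. The values were -4.53 (edgeR adjusted p = 0.00202) and -5.17 (adjusted p = 0.0181) without the 3 samples that stood apart.

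The same gene was read in every B-cell lymphoma (26.7 to 107 CPM) and control node (29.7 to 63.9), and was at 0 in GL-1, both CL-1 and all 4 OSW samples. The 7 other CLBL samples lay within the range of the lymphomas, and the 3 high CLBL1 samples lay below all of them.

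ENSCAFG00000030886 rose in the high samples of CLBL1. CLBL1 P5 and P17 held 2 counts and 1 count (1.01 and 0.29 CPM), and CLBL1 P76, P77 and P78 stood at 82.7, 95.9 and 69.2 CPM. In CLBL1M the low samples, P15 and P22, stood at 69.5 and 58.5 and the high samples, P74, P75 and P76, at 73.7, 20.1 and 26.5. The 2 low CLBL1 samples were therefore the ones apart, below the other 8 by more than 4-fold. Summed over libraries the ratio of high to low in CLBL1 was 148, with a 95% interval of 50.4 to 718 that covers counting error only. The test gave an adjusted p of 0.00846 within CLBL1 and of 0.0293 for the difference between lines (edgeR). The first call was kept in 6 and the second in 2 of the 10 fits that left out 1 sample, with adjusted p up to 0.149 and 0.401. Both passed without the 3 samples that stood apart, at adjusted p of 0.00199 and 0.00148.

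The level of this gene was uneven in primary tissue as well. In the B-cell lymphomas it ranged from 0 (2 of 12 samples) to 148 CPM with a median of 44.2, and in the 4 control nodes from 0.43 to 131. The 2 low CLBL1 samples lay within this range, as did the other 8.

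**Figure D4:**
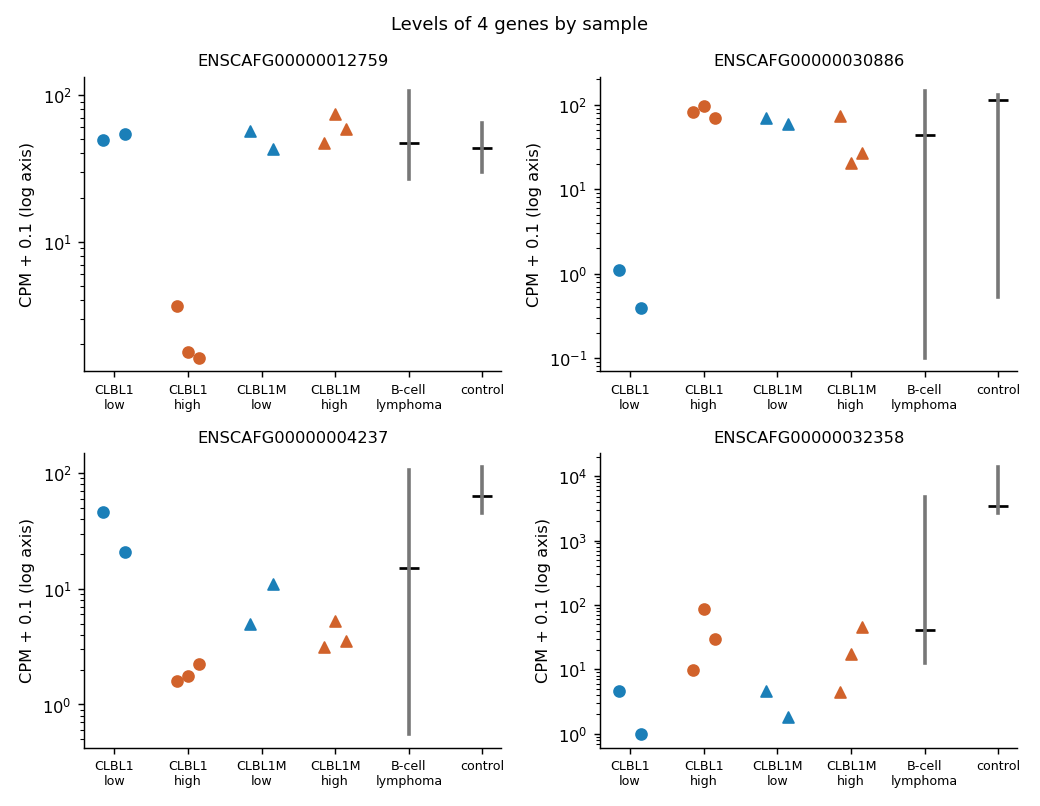
CPM with 0.1 added (log axis) of 4 genes in each CLBL sample by line and P number (blue low, orange high), with the range (grey line) and median (black bar) in 12 B-cell lymphomas and 4 control nodes. For ENSCAFG00000012759 the 3 high CLBL1 samples (1.52 to 3.57 CPM) lie below all others, and for ENSCAFG00000030886 the 2 low CLBL1 samples (0.29 and 1.01 CPM) lie below the other CLBL samples.

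A further gene that fell in the high CLBL1 samples was ENSCAFG00000004237, described above, with a log2 fold change of -4.25 (SE 0.49; edgeR adjusted p = 0.00846) within CLBL1 and -1.01 (SE 0.50; adjusted p = 1.00) within CLBL1M. The difference between lines did not pass (adjusted p = 0.577). The call was kept in 6 of the 10 fits that left out 1 sample, and without the 3 samples that stood apart (-3.50, adjusted p = 0.0318).

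The 3 remaining genes also fell within CLBL1. Their functions are known here only from the terms under which the study's annotation lists them. A gene of cell-matrix adhesion was read at 267 and 199 CPM in CLBL1 P5 and P17 and at 64.9, 55.3 and 64.7 in P76, P77 and P78, and stood between 169 and 242 in the 5 CLBL1M samples. Its log2 fold change within CLBL1 was -1.97 (SE 0.22; edgeR adjusted p = 0.00846). The B-cell lymphomas held 52.9 to 197 CPM of it, and CL-1 and OSW 0 to 1.07.

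A gene of the response to external stimuli stood at 258 and 208 CPM in CLBL1 P5 and P17, at 78.3, 46.6 and 31.6 in P76, P77 and P78, and at 185 to 244 in CLBL1M. Its log2 fold change within CLBL1 was -2.22 (SE 0.29; edgeR adjusted p = 0.0192). This gene was far higher in all 10 CLBL samples than in the B-cell lymphomas (3.52 to 10.8 CPM) and control nodes (2.04 to 14.3). It was also 1 of the 37 genes with all high samples below all low samples.

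The last, for which no term was found, stood at 22.7 and 13.8 CPM in CLBL1 P5 and P17, at 1.49, 3.35 and 1.52 in P76, P77 and P78, and at 11.5 to 22.8 in CLBL1M (log2 fold change within CLBL1 -3.13, SE 0.43; edgeR adjusted p = 0.0278). The B-cell lymphomas held 16.0 to 110 CPM. For these 3 genes the calls were kept in 7, 8 and 6 of the 10 fits that left out 1 sample, and none passed the test of the difference between lines (adjusted p = 0.297, 0.577 and 0.577). Without the 3 samples that stood apart the first was kept within CLBL1 (edgeR adjusted p = 0.0318) and the others were not (adjusted p = 0.21 and 0.269).

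Apart from single calls, each group of samples was asked how many genes set it 4-fold or more apart from all other CLBL samples, among genes reaching 5 CPM. The 3 high CLBL1 samples were below all others in 2 genes and above in 0. The 2 low CLBL1 samples were below in 1 and above in 0, and for low and high CLBL1M samples there were 0 genes in either direction. These counts are a description, with no test.

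Gene lists of known function were then described. Their members are identifiers that the study itself had selected as different from control nodes, so a list is no independent sample of its pathway. None of the members tested on any of the 13 lists passed in edgeR, pooled or within a line, where 0% of all genes were called in the pooled test. The median log2 fold change over all 10866 genes was 0.0076.

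The lists of cell division were slightly higher in the high samples by estimate. Of 18 genes tested of DNA replication, the copying of the genome before division, 17 had a positive estimate and 4 an unadjusted p under 0.05, all 4 higher, beside 1.36% of all genes tested, with a median log2 fold change of 0.23. For 16 genes of DNA replication initiation, which load and fire the replication origins, 15 were positive and 4 were at that level (median 0.27). The lists share 7 members, and the 4 genes at that level are the same in both. For mitotic sister chromatid segregation 14 of 14 were positive (median 0.19) and for the kinetochore 13 of 18 (median 0.10), with 0 at that level in both.

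By sample, these lists did not separate low from high. The mean log2(CPM + 1) of the DNA replication genes was 6.78 in CLBL1 P5, 6.82 in CLBL1M P15 and 6.81 in CLBL1M P74, and between 7.33 and 7.63 in the other 7 samples. The mitotic list was at 5.89, 6.06 and 6.05 in those 3 and between 6.61 and 6.78 in the others. The low levels were thus those of the 3 samples that stood apart, 2 low and 1 high, and CLBL1 P17 and CLBL1M P22 were at the level of the high samples. Leaving out the 3 samples left 2 low and 5 high samples. The medians were then 0.10 for DNA replication, 0.17 for its initiation, 0.07 for the mitotic list and 0.02 for the kinetochore. Of the estimates, 17 of 19, 13 of 16, 8 of 14 and 12 of 18 were positive. In all 10 samples the replication level exceeded that of the control nodes (5.20 to 5.52) and the B-cell lymphomas lay between 6.18 and 7.01. The list was selected from genes that differ from these nodes, so its level against the nodes is no independent result.

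The antigen presentation lists showed the opposite sign. All 9 MHC class II genes tested had a negative estimate (median -0.22), as did 16 of 19 genes of peptide antigen presentation (median -0.22), 1 of them at an unadjusted p under 0.05 and lower in the high samples, as were 2.35% of all genes. The lists overlap, since 7 of the 9 MHC class II genes are also among the 19. The mean MHC class II level was 9.67 in CLBL1 P5, 9.43 in CLBL1M P15 and 9.47 in CLBL1M P74, against 9.04 to 9.31 in the other 7 samples. The same 3 samples were therefore the highest. Without them 3 of 9 MHC class II estimates were positive, with a median of -0.0066, and 5 of 19 estimates of peptide antigen presentation were, with a median of -0.10. The CLBL range lay within that of the B-cell lymphomas (7.53 to 9.93).

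For B-cell receptor signalling 5 of 17 genes tested had a positive and 12 a negative estimate, with a median of -0.13, and of 0.012 without the 3 samples. Here too CLBL1 P5 (7.57), CLBL1M P74 (7.46) and CLBL1M P15 (7.45) held the highest levels, with the other 7 between 7.26 and 7.41. What part the 3 samples have in the list medians was not tested. For the lists of cell division, fewer dividing cells and less RNA of the listed genes per cell cannot be told apart in bulk RNA.

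**Figure D5:**
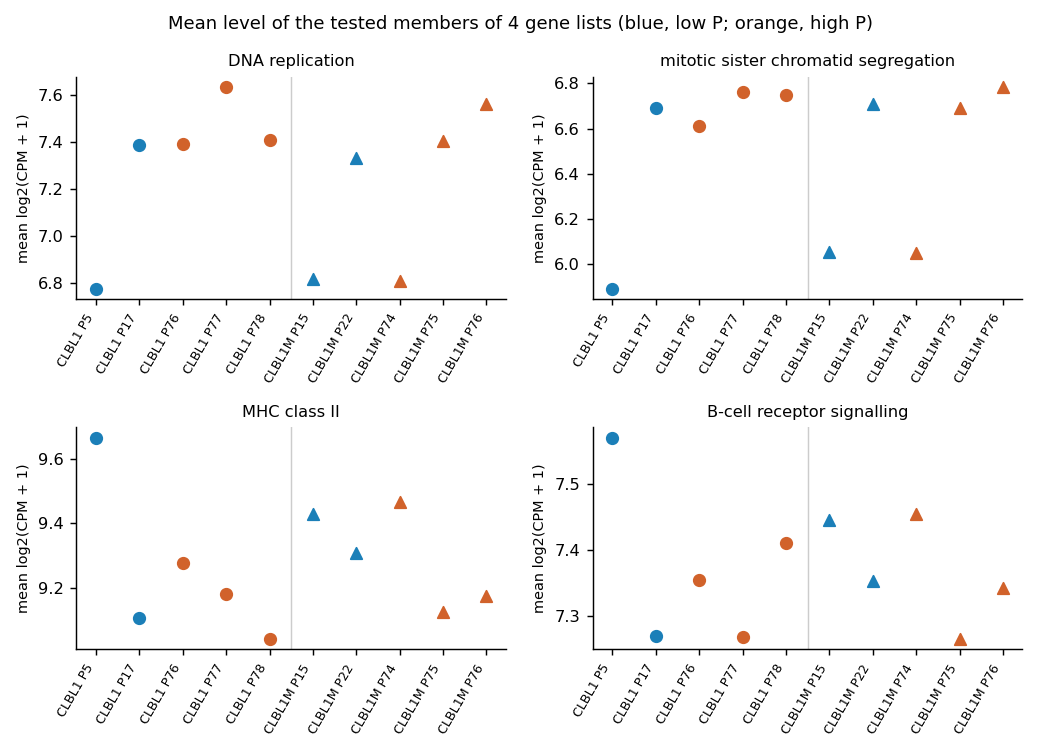
Mean log2(CPM + 1) of the tested members of 4 gene lists in each CLBL sample (circles CLBL1, triangles CLBL1M; blue low, orange high P number; vertical axes do not start at 0). CLBL1 P5 and CLBL1M P15 (both low) and CLBL1M P74 (high) are lowest for DNA replication (6.78 to 6.82) and mitosis. They are highest for MHC class II (9.43 to 9.67) and B-cell receptor signalling.

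The remaining lists were mixed in sign or had few genes tested. Restriction of viral replication had 7 of 11 positive estimates (median 0.12), type I interferon production 7 of 15 (median -0.029) and cell-cell adherens junction 3 of 5 (median 0.05). Of 13 genes of extracellular matrix binding only 1 was expressed enough to be tested (log2 fold change -0.90, unadjusted p = 0.0067, edgeR). Its value was -0.37 (unadjusted p = 0.217, edgeR) without the 3 samples that stood apart. In that fit 3 of 10 genes of viral restriction had an unadjusted p under 0.05, beside 3.28% of all 11159 genes, against 0 of 11 with all samples. Whether this list differs from all genes was not tested. Of the study's 9 miRNA genes, read here as longer poly-A transcripts, 8 were tested, 4 positive and 4 negative (median -0.006). Of its 97 lncRNA genes 52 were tested, 26 positive and 26 negative (median 0.0083), with 3 at an unadjusted p under 0.05, all lower in the high samples, as were 2.35% of all genes.

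For a pair of genes the study's text gives symbols. SHCBP1, an adaptor that binds the signalling protein SHC1, was read at 75.2 to 111 CPM in the low and 84.9 to 134 CPM in the high samples (log2 fold change 0.28, SE 0.14; edgeR adjusted p = 0.907), so the groups overlapped. Its pooled 95% interval, -0.019 to 0.58, lay within a 2-fold change. The control nodes lay below all 10 samples, at 13.0 to 30.6 CPM. FLT3, a receptor tyrosine kinase of early blood progenitors, had 1 to 10 counts per CLBL sample (0.30 to 3.16 CPM), too few to be tested, while the control nodes held 30.1 to 41.98 CPM.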

How the data were processed

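RNA-seq of poly-A RNA (100-bp paired reads) was analysed from raw counts per gene. Per the labels and the study's methods, the authors aligned reads with BWA to CanFam3.1, removed duplicates and low-quality alignments with Picard and SAMtools, and counted them with HTSeq (version 0.6.1) on Ensembl genes; the deposited counts are not normalized, and the strand setting is not given in the sources used here, so overlapping and antisense genes are uncertain. Only the 32704 gene rows entered totals and tests.

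P number and line name came from the names of the data and other groups from the sample titles. The members and gene lists were chosen with earlier results of these data known. Counts were filtered (filterByExpr, 10866 genes), TMM-normalized and tested in edgeR 4.0.16 (quasi-likelihood, line as covariate, Benjamini-Hochberg threshold of 0.05), with contrasts within each line and between lines from a fit of the 4 groups of line and P number. DESeq2 1.42.0 was an alternative. All fold changes are high minus low. CPM are counts per 1000000 counts on genes; distances and components used TMM-scaled log2 CPM with a prior count of 2. The scripts were tested on simulated data.

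Genes were to be named where they passed the test, did not overlap and had a symbol, or belonged to lists of symbols. The tables used here do not pair identifiers with symbols, so these rules gave no name. The identifiers printed are those with the lowest p in each direction of the pooled test and those that differed between lines, chosen after their values were seen. Lists are identifiers from the study's annotation terms held complete. The cell cycle term was held only in part and was not used. Distances to tissue, the first component and the counts by 4-fold were added after the data were seen.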

Additional observations from a re-analysis of the deposited data

Results flagged for a closer look

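ENSCAFG00000012759 was flagged because its change from low to high P number differed between lines, by -4.79 on the log2 scale (CLBL1 minus CLBL1M, SE 0.43; edgeR adjusted p = 0.00259). ENSCAFG00000030886 was flagged in the same way, with a difference of 7.74 (SE 0.96; adjusted p = 0.0293), a fitted value that rests on 3 counts in the low CLBL1 samples.

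CLBL1M P74 was flagged as a sample far from its group: on the first principal component it lay at 30.7, and its gap to the nearest of the other 5 high samples was 0.65 of the group's range. It was the 1 flag in 28 groups of values tested, where chance flags about 1 in 20.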

How the results depend on the processing

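The count of 0 genes in the pooled comparison was kept in 9 of 12 alternatives and in all 10 fits without 1 sample, where it ranged from 0 to 0. It was 1 with DESeq2 and 1 with all 37 samples in the fit. With no filter on low counts it was 111, and the counts within CLBL1, within CLBL1M and between lines were 108, 37 and 52. In that fit of 19151 genes edgeR's prior degrees of freedom were infinite, so that a gene's spread came from the trend with abundance alone. They were 5.30 in the reported fit, and 10.7 in edgeR's bias-adjusted version with no filter, added after seeing the data, where the pooled count was 0 and the counts within CLBL1 and between lines were 17 and 2. Within CLBL1 the count was 28 with DESeq2, 10 with all 37 samples and 0 at the study's threshold of 1e-05. Between lines it was 11 with DESeq2, 0 at that threshold and 6 without the 3 samples that stood apart. Leaving out 1 sample gave 1 to 11 genes within CLBL1, 0 to 4 within CLBL1M and 1 to 11 between lines. With P number as a linear covariate the pooled count was 0, with 658 genes at an unadjusted p under 0.05. In the reported fit 403 genes were at that level, and in the 11 alternatives run for this number 229 to 1075. The cause of these moves was not tested. The distance of low-high pairs minus same-group pairs was -0.318 when chi-square per degree of freedom served as distance (p = 0.54, one-sided exact permutation test). The sample-level measures kept their side of the threshold when permuted over all 10 samples. ENSCAFG00000012759 kept both of its calls in all 7 alternatives run for it. ENSCAFG00000030886 kept both in 6 of 7. No paired analysis was possible because each replicate number of the titles falls in 1 P group only. At 1980761 to 3414487 counts a sample, genes near 1 CPM were not testable.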
